A study of Mus musculus with 10 samples.

Results

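The 4 inhibitor of DNA binding genes *Id1*, *Id2*, *Id3* and *Id4* and 6 genes of bone morphogenetic protein (BMP) signaling, *Smad6*, *Smad7*, *Bmp2*, *Bmp4*, *Bmpr1a* and *Bambi*, were followed across the whole RNA sequencing series. They were chosen by symbol and make up 10 of the 43346 genes in the counts table. The cells were O9-1 cells, a mouse cranial neural crest line that is tetraploid and was kept on Matrigel, with FGF2, in medium conditioned by STO fibroblasts. The 3 groups were wildtype O9-1 cells (4 libraries, WT/1 to WT/4), clones in which CRISPR/Cas9 had disrupted *Kat5* (3 Kat5 ko clones, Kat5/1 to Kat5/3) and clones in which it had disrupted *Ep400* (3 Ep400 ko clones, Ep400/1 to Ep400/3). *Kat5* encodes the acetyltransferase and *Ep400* the ATPase of the same chromatin remodeling complex, and the comparisons asked how the loss of either subunit altered expression.

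Each clone had grown from a single sorted cell, whereas no cloning of the wildtype cells is described, so that knockout and cloning cannot be told apart. All Kat5 ko clones carried small insertions or deletions in every allele. Ep400/1 had frameshifts in all alleles, whereas Ep400/2 and Ep400/3 kept alleles with short in-frame deletions at the ATP binding site, most of the alleles in Ep400/2 and a single allele in Ep400/3.

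BMP ligands such as Bmp2 and Bmp4 bind pairs of type I and type II receptor kinases, among them Bmpr1a, and the receptors phosphorylate Smad1, Smad5 and Smad9, which enter the nucleus with Smad4. Id genes are among the best known direct targets of these Smads. Id proteins have a helix-loop-helix domain but no DNA-binding domain, and hold E proteins such as Tcf3, Tcf4 and Tcf12 away from DNA. Smad6, Smad7 and the pseudoreceptor Bambi dampen the pathway and are themselves induced by it, and in the head BMP signals pattern the facial processes formed by neural crest cells.

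Libraries held 30968945 to 48301792 counts, and all 10 genes passed the filter on low counts in every comparison. *Kat5* had normalized counts of 618 to 872 in the Kat5 ko clones and 1837 to 2163 in wildtype cells (log2-fold −1.40, SE 0.17; adjusted p = 0.0207), and *Ep400* had 2059 to 2311 in the Ep400 ko clones and 5899 to 6216 in wildtype cells (log2-fold −1.44, SE 0.12; adjusted p = 0.0012). Normalized counts are counts scaled to a common library size, and log2-folds and their SEs come from edgeR. Of 16 neural crest markers, 12 had a mean above 100 normalized counts in wildtype cells, while *Sox10* and *Foxd3* were at 0 in every library. Pluripotency and skeletal muscle markers were at or near 0 in all groups.

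The genes lie on 7 chromosomes (GENCODE M21, GRCm38). *Id1* (chr2:152736251-152737410, plus strand) and *Bmp2* (chr2:133552159-133562885, plus) share chromosome 2, and *Bmp4* (chr14:46383520-46390669, minus) and *Bmpr1a* (chr14:34410734-34503341, minus) share chromosome 14. *Smad7* and *Bambi* share chromosome 18. *Id3* lies at chr4:136143497-136145755 (plus), *Smad6* at chr9:63953076-64022059 (minus), *Id2* at chr12:25093799-25097140 (minus) and *Id4* at chr13:48261228-48266026 (plus). The counts are per gene, so that transcripts of 1 gene are not separated.

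Levels can be compared between genes after division by exon length. In wildtype cells *Id3* had the highest mean of the 10 genes, 1133 ± 271 normalized counts per kilobase of exon (SD, n = 4), followed by the receptor gene *Bmpr1a* with 932 ± 155 and the ligand gene *Bmp2* with 674 ± 529. *Id1* had 431 ± 101 and *Id4* 306 ± 60.5 normalized counts per kilobase. The ranges of these neighbours overlapped, and the first gap in the order lay between *Id4* and *Bambi*, which had 107 ± 10.7. *Bmp4* (28.5 ± 17.9), *Id2* (18.2 ± 15.9) and *Smad6* (9.85 ± 6.84) formed the lowest group, with ranges that again overlapped between neighbours. In the Kat5 ko clones *Id1* moved up to the second place with 1651 ± 573 (n = 3), above *Bmpr1a* without overlap. In the Ep400 ko clones it also held the second place with 1332 ± 674, but its range reached down into that of *Bmpr1a*, and every pair of neighbours in that order overlapped.

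*Id1* was called higher in both sets of knockout clones, *Id3* lay above the wildtype range in all clones without a call, and *Id2* and *Id4* overlapped the wildtype libraries in at least 1 knockout. *Id1* had 585, 526, 559 and 328 normalized counts in WT/1 to WT/4. It had 1437, 1633 and 2674 in Kat5/1 to Kat5/3 and 2014, 1979 and 644 in Ep400/1 to Ep400/3. All 6 clones lay above the wildtype range, although Ep400/3 did so by a small margin. The log2-fold against wildtype was 1.91 (SE 0.27) for the Kat5 ko clones and 1.63 (SE 0.38) for the Ep400 ko clones, and both met the limit of an adjusted p of at most 0.05. Leaving out 1 library at a time kept the Kat5 fold between 1.60 and 2.08 and the Ep400 fold between 1.39 and 2.00, but the call held in only 1 of 7 such fits for each, without Kat5/1 and without Ep400/3. In bulk RNA, here and throughout, fewer or more cells of a type and less or more RNA per cell cannot be told apart.

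*Id3*, the most abundant of the family, had 2417, 1516, 2469 and 1717 normalized counts in WT/1 to WT/4. The Kat5 ko clones had 3559, 3970 and 5748, and the Ep400 ko clones 3736, 4659 and 2587. Again every clone lay above every wildtype library, with Ep400/3 closest to them. The log2-folds of 1.09 (SE 0.23) and 0.85 (SE 0.24) did not meet the limit on the adjusted p. In both comparisons *Id3* was called when low counts were not filtered, by DESeq2, and without 1 clone (Kat5/1 or Ep400/3).

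*Id2* had the largest spread of the 10 genes among the wildtype libraries and among the Kat5 ko clones. Wildtype cells had 79.3, 9.79, 11.8 and 76.5 normalized counts, the Kat5 ko clones 109, 53.3 and 746, and the Ep400 ko clones 477, 285 and 144. Every Ep400 ko clone was above the wildtype range, whereas Kat5/2 fell inside it. The fold in the Kat5 ko clones rested on Kat5/3: it was 2.73 (SE 1.05) with all clones and 0.85 without Kat5/3. In the Ep400 ko clones it was 2.76 (SE 0.79) and stayed between 2.27 and 3.18 when 1 library was left out. Neither met the limit, while DESeq2 called both. The wildtype levels of *Id2* rest on 9 to 92 raw counts.

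*Id4*, the member of the family whose protein often opposes the others, had 1384, 854, 1300 and 1166 normalized counts in wildtype cells. The Kat5 ko clones had 2482, 1078 and 1431, and the Ep400 ko clones 3054, 881 and 2643. Kat5/2 and Ep400/2 lay inside the wildtype range and the remaining clones above it. The log2-folds were 0.47 (SE 0.30) and 0.90 (SE 0.38), and neither met the limit. The second was 0.58 without Ep400/1 and 1.25 without Ep400/2, and it was called in the last of these alone among 7 fits without 1 library. *Id4* overlaps annotated genes on the other strand, and the strand setting of the counting is not given in the sources used here.

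**Figure D1:**
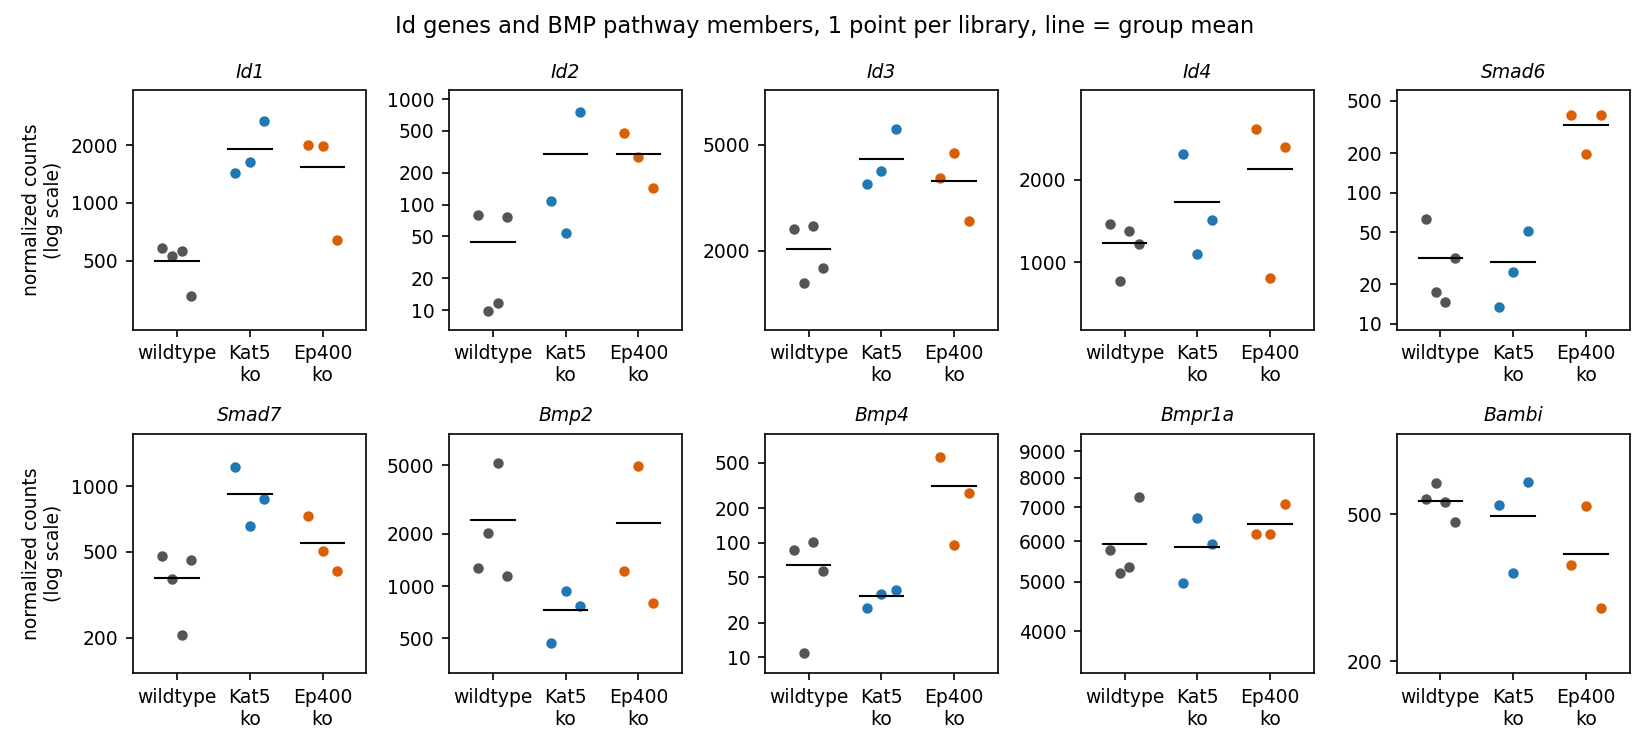
Normalized counts of the 10 genes (vertical axes, log scale) in each group (horizontal axes: wildtype, Kat5 ko, Ep400 ko); each point is 1 library and each line a group mean. All clones of both genotypes lie above the wildtype libraries for *Id1* and *Id3*, the Ep400 ko clones alone stand between 198 and 391 for *Smad6*, and the points of *Bmpr1a* mix.

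The summed level of the 4 Id genes per kilobase of exon was 1526 to 2246 in wildtype cells, 3916 to 6192 in the Kat5 ko clones and 2745 to 4811 in the Ep400 ko clones. *Id3* made up the largest share in every library, from 43.4% to 62.6%. The share of *Id1* was 17.9% to 29.7% in wildtype cells and 31.6% to 37.2% in the Kat5 ko clones. Ep400/1 and Ep400/2 had *Id1* shares of 36.1% and 36.7%, whereas Ep400/3 had 20.2% and the highest *Id4* share of any library, 25.0%. *Id2* never exceeded 4.94%. The clones with the lowest *Id4* shares were Ep400/2 with 4.92%, Kat5/3 with 6.0% and Kat5/2 with 7.13%.

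**Figure D2:**
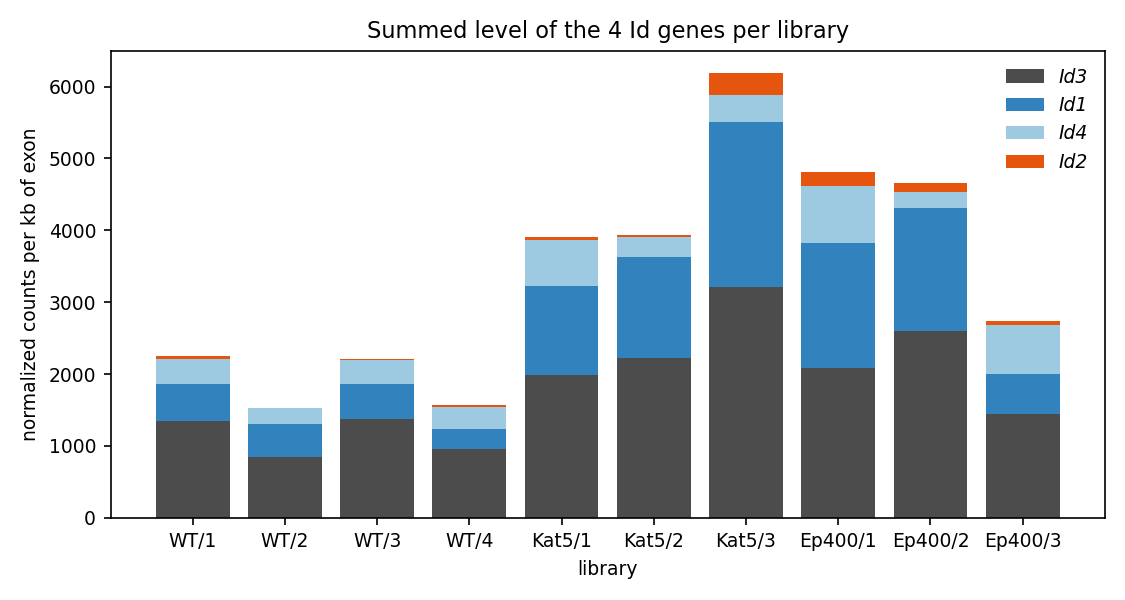
Stacked bars of the level of *Id3*, *Id1*, *Id4* and *Id2* in normalized counts per kilobase of exon (vertical axis) for each of the 10 libraries (horizontal axis). The wildtype bars end between 1526 and 2246 and the bars of the 6 clones between 2745 and 6192, with *Id3* as the largest part in each.

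*Smad6*, which encodes the inhibitory Smad that acts mainly against BMP receptors, separated the knockouts. It had 62.5, 17.4, 14.7 and 31.6 normalized counts in WT/1 to WT/4 and 13.5, 24.8 and 50.6 in the Kat5 ko clones. The Ep400 ko clones had 389, 198 and 391. The wildtype cells and Kat5 ko clones overlapped, and the Ep400 ko clones stood above all other libraries with a mean 10.3 times that of wildtype cells. The log2-fold was 3.37 (SE 0.54) in the Ep400 ko clones, which met the limit also in all 7 fits without 1 library, and −0.11 (SE 0.65) in the Kat5 ko clones. For the Kat5 ko clones the fit without a library gave values from −0.74 to 0.44, so that no direction can be read from it.

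The sequences before the start sites of *Smad6* and *Bmp4* are shown because these genes differed most between the knockouts, and that of *Id2* because it is the Id gene with the largest fold in the Ep400 ko clones. They are from RefSeq (GRCm38.p6), read 5′ to 3′ on the strand of the gene, and are limited to bases outside annotated exons. Capitals mark the BMP Smad letters GGCGCC and GCCGNC and the E box CACGTG, found on either strand. The *Smad6* stretch lies at chr9:64022060-64022309 (minus strand), the *Bmp4* stretch at chr14:46390670-46390919 (minus strand), and the *Id2* stretch at chr12:25096254-25096342 (minus strand), which falls between exons of longer annotated *Id2* transcripts.
Smad6: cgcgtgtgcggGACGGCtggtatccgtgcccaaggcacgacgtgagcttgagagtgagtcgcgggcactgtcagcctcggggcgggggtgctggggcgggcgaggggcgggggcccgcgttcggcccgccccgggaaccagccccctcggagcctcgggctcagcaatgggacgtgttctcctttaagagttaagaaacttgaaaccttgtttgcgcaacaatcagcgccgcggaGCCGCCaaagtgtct
Id2: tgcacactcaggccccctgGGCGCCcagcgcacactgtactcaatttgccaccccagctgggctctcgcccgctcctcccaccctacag
Bmp4: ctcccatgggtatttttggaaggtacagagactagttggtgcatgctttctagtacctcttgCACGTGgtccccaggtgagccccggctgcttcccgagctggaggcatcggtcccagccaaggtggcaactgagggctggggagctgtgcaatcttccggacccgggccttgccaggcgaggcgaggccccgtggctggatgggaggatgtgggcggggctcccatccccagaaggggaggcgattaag

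The *Smad6* stretch held GCCGNC at 2 places, the *Id2* stretch held GGCGCC at 1 place and the *Bmp4* stretch held CACGTG at 1 place. RefSeq promoter windows of 300 bases were matched for 6 of the 10 genes (*Id2*, *Id3*, *Id4*, *Smad6*, *Bmp4* and *Bmpr1a*). GGCGCC was present in 3 of these 6 (*Id2*, *Id4* and *Bmpr1a*) and in 12.0% of all 27025 promoters. GCCGNC was present in 4 of 6 (*Id3*, *Id4*, *Smad6* and *Bmpr1a*) and in 33.0% of all promoters. The window of *Bmpr1a*, a gene with a similar level in all groups, held the most, with GGCGCC at 1 place and GCCGNC at 4. CACGTG was found in 1 of 6 and in 7.24%. The shorter letters were common everywhere: GTCT was in 88.0% and the general E box CANNTG, which also counts every CACGTG, in 72.1% of all promoters. The 6 windows had a GC content of 60.0% to 79.3%, against a median of 52.7% over all promoters.

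*Smad7*, whose product inhibits both BMP and TGF-beta receptors, had 476, 373, 206 and 459 normalized counts in wildtype cells. The Kat5 ko clones had 1226, 654 and 878, all above the wildtype range. The Ep400 ko clones had 732, 506 and 408, of which Ep400/3 fell inside it. The log2-folds were 1.25 (SE 0.33) for the Kat5 ko clones and 0.54 (SE 0.33) for the Ep400 ko clones, neither of which met the limit. *Smad7* lies on chromosome 18, whose genes had a median shift from the wildtype mean of 0.31 in Kat5/1, −0.22 in Kat5/2 and 0.17 in Kat5/3 on the log2 scale. With this shift taken out per library, the Kat5 fold of *Smad7* was 1.14 (SE 0.26).

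Among the ligands, *Bmp4* differed between the knockouts and *Bmp2* was lower in the Kat5 ko clones. *Bmp4* had 86.5, 10.9, 102 and 56.5 normalized counts in wildtype cells, 27.0, 36.0 and 39.0 in the Kat5 ko clones and 562, 95.3 and 274 in the Ep400 ko clones. Ep400/2 lay inside the wildtype range and the other Ep400 ko clones above it, while all Kat5 ko clones lay inside it. The log2-folds were 2.28 (SE 0.75) for the Ep400 ko clones and −0.94 (SE 0.66) for the Kat5 ko clones, and neither met the limit. *Bmp4* overlaps annotated genes on the other strand.

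*Bmp2* had 1263, 2023, 5157 and 1148 normalized counts in wildtype cells. The Kat5 ko clones had 471, 941 and 762, all below the wildtype range. The Ep400 ko clones had 1219, 4906 and 803. A single library stood high in each of the wildtype and Ep400 groups, WT/3 and Ep400/2. The log2-fold of the Kat5 ko clones was −1.76 (SE 0.55), and −1.05 without WT/3, and did not meet the limit. The fold of the Ep400 ko clones was −0.06 (SE 0.71), −1.27 without Ep400/2 and 0.64 without WT/3, so that no direction can be read from it.

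The type I receptor gene *Bmpr1a* was at a similar level in all groups. It had 5782, 5194, 5349 and 7345 normalized counts in wildtype cells, 4968, 6677 and 5927 in the Kat5 ko clones and 6204, 6191 and 7091 in the Ep400 ko clones. The groups overlapped, and the log2-folds were −0.05 (SE 0.17) and 0.13 (SE 0.16). *Bambi* had 549, 609, 539 and 476 in wildtype cells, 531, 346 and 610 in the Kat5 ko clones and 364, 527 and 278 in the Ep400 ko clones. Ep400/1 and Ep400/3 were below the wildtype range and Ep400/2 inside it, with log2-folds of −0.16 (SE 0.22) for the Kat5 ko clones and −0.48 (SE 0.24) for the Ep400 ko clones.

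**Figure D3:**
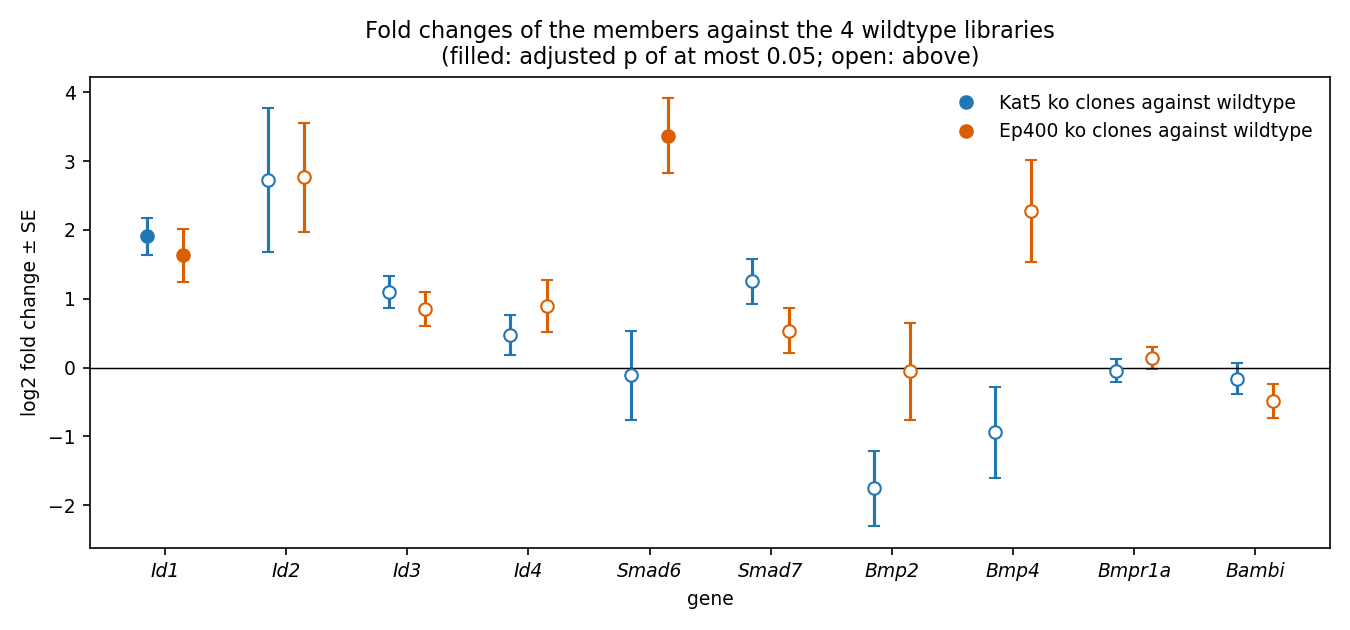
Log2-fold changes against wildtype cells (vertical axis) with their SE as bars for the 10 genes (horizontal axis), for the Kat5 ko clones and the Ep400 ko clones; filled points met an adjusted p of at most 0.05. *Id1* is filled in both comparisons and *Smad6* in the Ep400 ko clones, at 3.37, while the Kat5 ko value of *Smad6* lies at −0.11.

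In the Kat5 ko clones 1 of the 10 genes, *Id1*, was called higher and none lower, and 5 had an unadjusted p under 0.05, which 22.3% of all genes tested had. Of all 13434 genes tested, 0.179% were called higher and 0.447% lower. DESeq2 called 5 of the 10 (*Id1*, *Id2*, *Id3*, *Smad7* and *Bmp2*), and 1489 of all 13434 genes. All clones lay above the wildtype range for 3 members (*Id1*, *Id3* and *Smad7*; 9.67% of all genes) and below it for *Bmp2* (10.2% of all genes). In the Ep400 ko clones *Id1* and *Smad6* were called higher and none lower, where 8.00% of 13836 genes were called higher and 5.72% lower. Here 6 of the 10 had an unadjusted p under 0.05, which 32.2% of all genes tested had. DESeq2 called 5 (*Id1*, *Id2*, *Id3*, *Smad6* and *Bmp4*), and 3131 of all 13836 genes. All Ep400 ko clones lay above the wildtype range for 4 members (*Id1*, *Id2*, *Id3* and *Smad6*; 16.1% of all genes) and below it for 0 (14.1% of all genes). The 10 genes were picked with these contrasts known, and both contrasts use the same wildtype libraries, so that the counts describe the members and nothing more. The median log2-fold over the 10 genes was 0.21 in the Kat5 ko clones, against 3.2e-05 over all genes tested. In the Ep400 ko clones it was 0.87, against 0.04 over all genes tested.

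Set directly against each other, the knockouts differed in *Smad6* and *Bmp4*. The Ep400 ko clones were higher by a log2-fold of 3.43 (SE 0.61) for *Smad6* and 3.17 (SE 0.68) for *Bmp4*, and no Kat5 ko clone reached the range of the Ep400 ko clones for either gene. Both were called; 4.22% of 13587 genes were called higher in the Ep400 ko clones and 2.83% lower, and without overlap 20.5% of all genes were higher and 18.0% lower. The *Smad6* call held in 1 of 6 fits without 1 library (that without Kat5/1) and the *Bmp4* call in 0 of 6. For *Id1*, *Id2* and *Id3* the direct log2-folds were −0.33 (SE 0.45), −0.02 (SE 0.94) and −0.29 (SE 0.28), smaller than their SEs or close to them. That of *Id2* became 1.88 without Kat5/3. *Smad7* was lower in the Ep400 ko clones by −0.77 (SE 0.33) and *Bmp2* higher by 1.65 (SE 0.67), or 0.46 without Ep400/2; neither met the limit.

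The wildtype libraries spread widely for the ligands and *Id2*. Their SD of log2 levels was 1.59 for *Id2*, 1.42 for *Bmp4* and 0.99 for *Bmp2*, larger than for 98.4%, 97.5% and 93.3% of 14079 genes, whereas *Bambi* (0.14) lay below the median SD of 0.24 and *Bmpr1a* (0.23) close to it. In the Kat5 ko clones the SD was 1.96 for *Id2* but 0.51 for *Bmp2* and 0.27 for *Bmp4*, with a median of 0.37 over all genes. *Bmp2* (1.37) and *Bmp4* (1.28) had the largest SDs of the 10 genes among the Ep400 ko clones. The levels of *Id1* and *Id3* ran together over the 10 libraries (Pearson's r = 0.94, a description over libraries that share 3 groups), and *Smad6* and *Bmp4* likewise (r = 0.82). *Id4* followed *Id1* little (r = 0.21). The 5 genes outside the members with the pattern most like the mean of *Id1*, *Id2* and *Id3* were *Rtf1* (r = 0.95), *Degs1* and *2700062C07Rik* (0.93 each), *Slc35d1* (0.92) and *Emc7* (0.91), out of 9226 genes compared over the 10 libraries. *Slc35d1*, which encodes a nucleotide sugar transporter, had means of 551, 941 and 1150 normalized counts in the wildtype, Kat5 ko and Ep400 ko groups. *Rtf1*, a subunit of an elongation complex of RNA polymerase II, had means of 2740, 3070 and 3020 in the same order.

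The other genes of the pathway were described from 7 lists with 87 genes. In the Ep400 ko clones 56 of them could be tested, of which 10 rose and 1 fell (19.6% called, against 13.7% of all genes tested), with a median log2-fold of 0.29 against 0.04 over all genes tested. The antagonists and modulators outside the cell accounted for 4 of the 10, all of them differentially expressed genes (DEGs, here also with an absolute log2-fold of at least 1 and a mean above 100 normalized counts in 1 group). Of the 12 tested genes on that list 4 rose and none fell, and their median was 0.70.

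*Grem1*, which encodes the secreted BMP2 and BMP4 antagonist gremlin, had 33326 to 46023 normalized counts in wildtype cells and 120913, 139815 and 88460 in Ep400/1 to Ep400/3. It rose by a log2-fold of 1.54 (SE 0.20; adjusted p = 0.00421). Per kilobase of exon it had 9651 ± 1254 normalized counts in wildtype cells (SD, n = 4), far above the 674 ± 529 of *Bmp2* and the 28.5 ± 17.9 of *Bmp4* on the same scale, and 28060 ± 6262 in the Ep400 ko clones (n = 3). *Chrd*, which encodes the ligand-binding antagonist chordin, had 103 to 150 normalized counts in wildtype cells and 829, 514 and 1060 in the Ep400 ko clones (log2-fold 2.72, SE 0.28; adjusted p = 0.00226). *Nbl1*, a gene of the same antagonist family as gremlin, had 32.4 to 126 and then 647, 1003 and 1721 (log2-fold 3.92, SE 0.56; adjusted p = 0.00583). For all 3 genes the Ep400 ko clones did not overlap the wildtype cells. *Fstl1*, a secreted follistatin-like protein gene, had 2708 to 5730 in wildtype cells and 16991, 10033 and 14096 in the Ep400 ko clones (log2-fold 1.51, SE 0.28; adjusted p = 0.0131). These 4 genes were called in all 7 fits without 1 library.

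**Figure D4:**
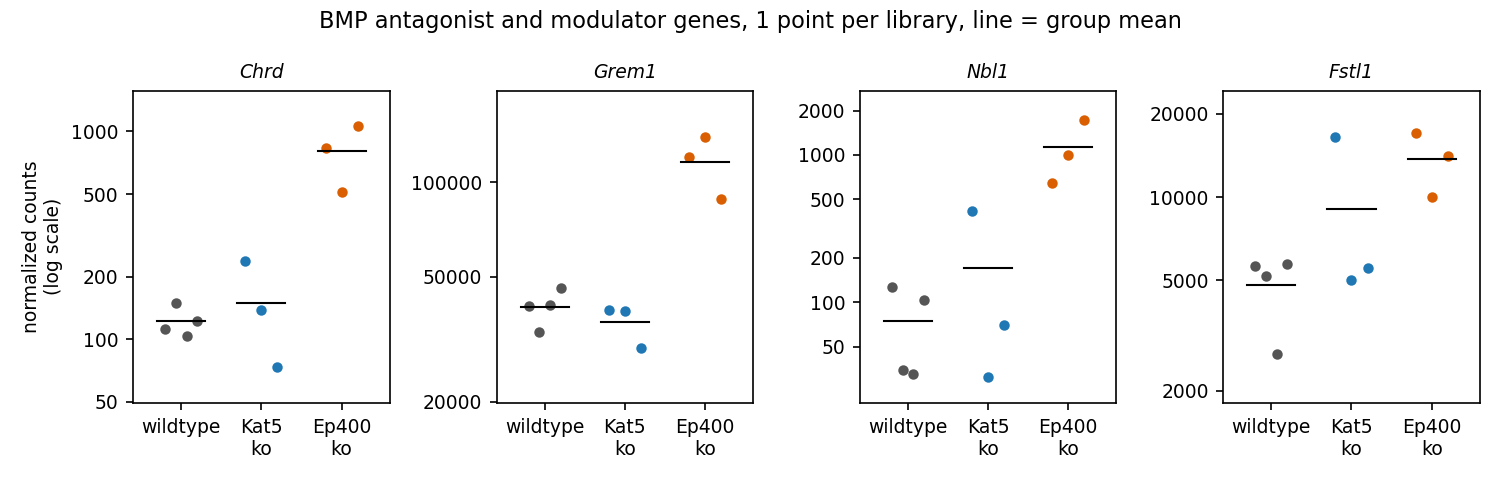
Normalized counts (vertical axes, log scale) of *Chrd*, *Grem1*, *Nbl1* and *Fstl1* in the 3 groups (horizontal axes); points are libraries and lines are group means. The Ep400 ko clones lie above all wildtype libraries in each panel, and Kat5/1 stands with them for *Fstl1* at 16486.

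Most receptor genes gave no call in the Ep400 ko clones, where 13.7% of all genes tested were called. Of 9 tested receptors and co-receptors 2 were called in the Ep400 ko clones, and these are named after their values were seen: the type II receptor gene *Acvr2a* (log2-fold 0.76, SE 0.21; adjusted p = 0.0448) and the co-receptor gene *Neo1* (0.72, SE 0.17; adjusted p = 0.0264). The call of *Acvr2a* was lost in all 7 fits without 1 library and that of *Neo1* in all but 3. *Bmpr2* (−0.20, SE 0.23; adjusted p = 0.567) and *Acvr1* (0.26, SE 0.20; adjusted p = 0.381) did not pass, and *Bmpr1b* had at most 4.15 normalized counts in any library. Of the 4 Smads that carry the signal, *Smad4* fell by 0.42 on the log2 scale (SE 0.11; adjusted p = 0.0428), with 2697 to 2853 normalized counts against 3539 to 3953 in wildtype cells. This call was lost in each of the 7 fits without 1 library. *Smad1* (−0.27, SE 0.18), *Smad5* (0.05, SE 0.14) and *Smad9* (1.17, SE 0.49) did not pass, and *Smad9* was low in wildtype cells with 3.93 to 13.2 normalized counts.

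Among 12 other target genes of BMP signaling 3 rose in the Ep400 ko clones, where 8.00% of all genes tested were called higher. All Ep400 ko clones lay above the wildtype range for 4 of the 12 (16.1% of all genes) and below it for 1 (14.1% of all genes). The latter was *Gata3* (27.4 to 92.9 against 127 to 380 normalized counts), named after its values were seen and not called (log2-fold −1.80, SE 0.54; adjusted p = 0.0577). *Tbx20*, a T-box factor gene, had 980 to 1674 normalized counts in wildtype cells and 2774, 6176 and 3254 in the Ep400 ko clones (log2-fold 1.54, SE 0.29; adjusted p = 0.0138). The homeobox gene *Dlx5* and the Notch and BMP target *Hey1*, named after their values were seen, were close to 0. *Dlx5* had 1 read in a single wildtype library and 14, 31 and 46 reads in the Ep400 ko clones (adjusted p = 0.00561). *Hey1* had at most 3 reads in a wildtype library and 25, 10 and 14 in the Ep400 ko clones (adjusted p = 0.0308), and its call held in 1 of 7 fits without 1 library. Of 11 intracellular regulators, *Ski*, a corepressor of Smads named after its values were seen, rose by a log2-fold of 0.95 (SE 0.12; adjusted p = 0.00405). Of 2 tested ligands outside the members none was called.

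The E proteins, the main partners of Id proteins, showed no call in either knockout. All Ep400 ko clones lay below the wildtype range for *Tcf3* (6392 to 7948 against 8765 to 10830 normalized counts). For *Tcf12* they lay above it (9291 to 11680 against 6078 to 8418), and for *Tcf4* they overlapped it. Of all genes tested, 14.1% lay below and 16.1% above without overlap. In the Ep400 ko clones the log2-folds were −0.45 (SE 0.14; adjusted p = 0.0717) for *Tcf3*, 0.29 (SE 0.31; adjusted p = 0.555) for *Tcf4* and 0.48 (SE 0.16; adjusted p = 0.0824) for *Tcf12*. In the Kat5 ko clones they were −0.01 (SE 0.18; adjusted p = 0.973), −0.34 (SE 0.27; adjusted p = 0.491) and −0.31 (SE 0.15; adjusted p = 0.259). *Tcf3* had the highest level of the 3 in wildtype cells, 2466 ± 214 normalized counts per kilobase of exon (SD, n = 4), where the summed Id level was 1526 to 2246 on the same scale. In all 6 clones that sum was 2745 or more, while the mean level of *Tcf3* was 2489 ± 606 in the Kat5 ko and 1806 ± 200 in the Ep400 ko clones (n = 3 each). *Tcf12* had means of 472, 389 and 660 in the wildtype, Kat5 ko and Ep400 ko groups, and *Tcf4* 252, 203 and 308. *Tcf3* is thus only a part of the E protein RNA, and the balance of the proteins was not measured. Of the 6 tested helix-loop-helix partners none was called in either comparison; 4 had an unadjusted p under 0.05 in the Ep400 ko clones, where 32.2% of all genes did, and 1 in the Kat5 ko clones, where 22.3% did.

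In the Kat5 ko clones none of 52 tested genes of the 7 lists was called by edgeR. At an unadjusted p under 0.05 there were 9 (17.3%, against 22.3% of all genes), and the median log2-fold was −0.02, against 3.2e-05 over all genes tested. DESeq2 called 3 of the 52, and 1489 of all genes tested. Without Kat5/1 the count was 6, and over all genes it went from 84 to 2654. *Grem1* (−0.19, SE 0.17; adjusted p = 0.542), *Chrd* (0.27, SE 0.42; adjusted p = 0.734), *Smad4* (0.14, SE 0.12; adjusted p = 0.515), *Smad1* (−0.30, SE 0.17; adjusted p = 0.335) and *Smad5* (0.15, SE 0.21; adjusted p = 0.707) did not pass. *Nog*, the gene of the antagonist noggin, was too low to be tested, with 38.2 normalized counts in Kat5/3 and at most 11.4 elsewhere.

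**Figure D5:**
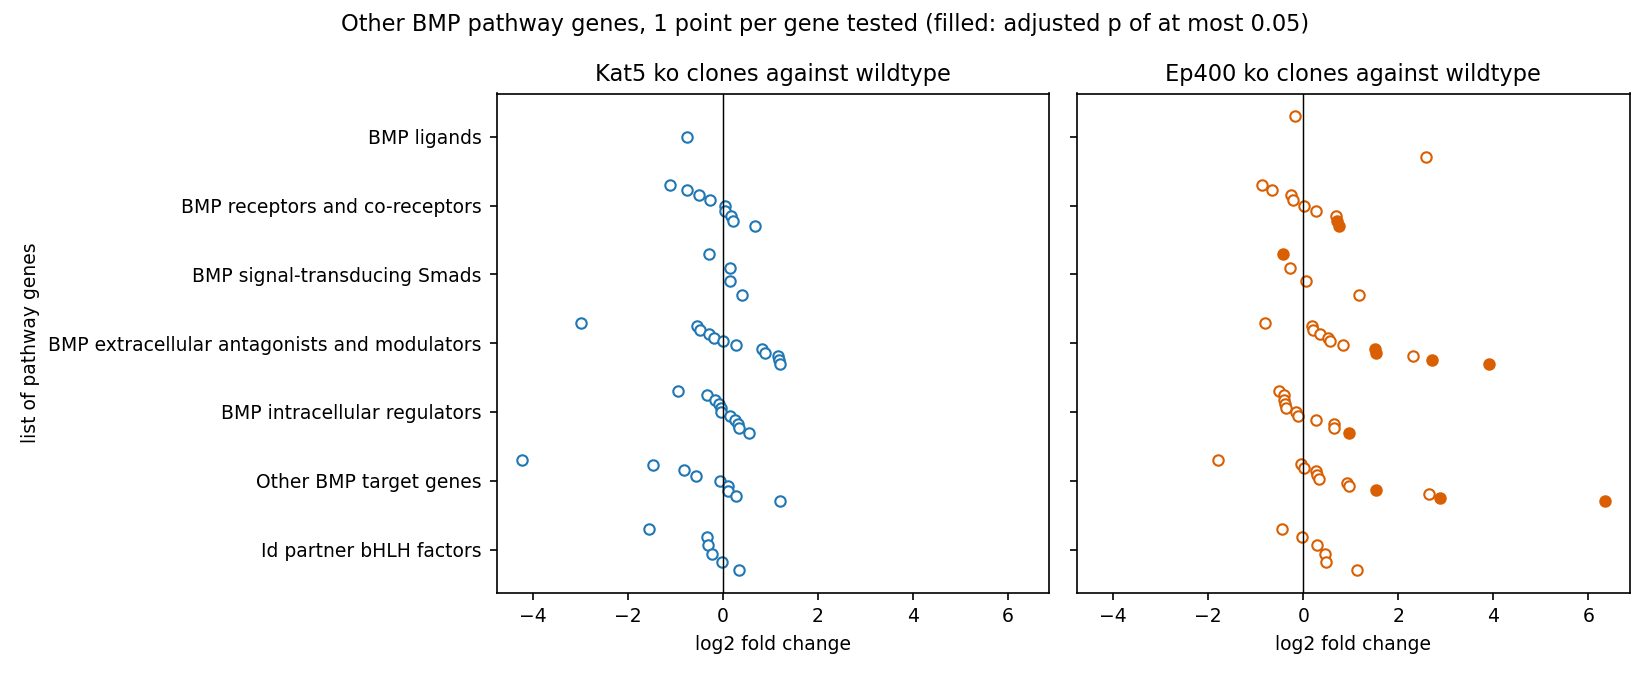
Log2-fold changes (horizontal axes) of the tested pathway genes outside the members, 1 point per gene, by list (vertical axis), in the Kat5 ko clones on the left and the Ep400 ko clones on the right; filled points met an adjusted p of at most 0.05. No point is filled on the left and 11 are on the right, 4 of them antagonists; the point farthest right is *Dlx5*, whose fold has no firm size because wildtype cells had 1 read.

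In the direct comparison of the knockouts 54 genes of the lists were tested and 4 were called (7.41%, close to the 7.05% of all genes called), all higher in the Ep400 ko clones. These were *Grem1* (log2-fold 1.68, SE 0.26; adjusted p = 0.0271), *Chrd* (2.39, SE 0.50; adjusted p = 0.0400), *Dlx5* (adjusted p = 0.0357; 0 to 2 reads in the Kat5 ko clones) and the homeobox gene *Msx1* (2.33, SE 0.50; adjusted p = 0.0415), the last 2 named after their values were seen. The calls of *Grem1*, *Chrd* and *Dlx5* held in 1 of 6 fits without 1 library, and that of *Msx1* in 2 of 6. *Msx1* had 165 to 322 normalized counts in the Kat5 ko clones and 590 to 2034 in the Ep400 ko clones. In wildtype cells it ranged from 198 to 1843, with the highest value in WT/3, the library that also had the most *Bmp2*.

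The sums of several marker lists moved with the groups. The summed level of the 16 neural crest markers was 65240 to 74700 normalized counts in wildtype cells, 66140 to 74110 in the Kat5 ko clones and 92680 to 140100 in the Ep400 ko clones, where the antagonists and *Smad6* were high. The higher sum rested mainly on *Pdgfra*, with a mean of 4639 in wildtype cells and 22130 in the Ep400 ko clones, and on *Prrx1*, with 33186, 36304 and 81200 in Ep400/1 to Ep400/3 and 24516 to 35838 in wildtype cells. Other markers of the list went both ways. For *Sox9* (1533 to 2114 against 2178 to 3110) and *Snai1* (536 to 636 against 648 to 907) all Ep400 ko clones lay below the wildtype range. For *Tfap2a* (2170 to 4303 against 731 to 1682), *Pax3* (49.4 to 256 against 3.26 to 6.87), *Snai2* (1569 to 2367 against 733 to 1308) and *Twist1* (3099 to 4543 against 2339 to 2990) they lay above it. *Ets1*, *Nes*, *Ngfr*, *Dlx2*, *Tfap2b* and *Cd44* overlapped it. The 5 smooth muscle markers summed to 2018 to 2945 in wildtype cells, 2371 to 28540 in the Kat5 ko clones and 715 to 3412 in the Ep400 ko clones. The high value belonged to Kat5/1, with 18992 for *Acta2* and 6775 for *Tagln*, while *Cnn1* was at 3.11. Kat5/1 was also the Kat5 ko clone with the most *Smad7*, *Id4*, *Fstl1* and *Nbl1*. The 6 epithelial markers summed to 62.0 to 181 in wildtype cells, 15.8 to 31.1 in the Kat5 ko and 21.2 to 36.5 in the Ep400 ko clones. The 4 endothelial markers summed to 37.0 to 63.2, 7.44 to 27.0 and 8.23 to 17.8, so that both sums were lower in the clones without overlap. The lower sums rested mainly on *Krt8* and *Krt18* and on *Pecam1*, whereas *Krt14*, *Cdh5*, *Kdr* and *Tek* overlapped the wildtype range. The sum of the 6 bone and cartilage markers was lower in the Ep400 ko clones (9.41 to 46.8 against 238 to 954 in wildtype cells). This rested on *Acan* (0 to 7.06 against 209 to 920), while *Sp7*, *Bglap* and *Col2a1* overlapped the wildtype range. The sum of the 5 glial and neuronal markers was higher (445 to 921 against 242 to 416). Here *Tubb3* was higher in all Ep400 ko clones (194 to 860 against 94.3 to 184), whereas *Mbp* was lower (4.70 to 18.7 against 70.7 to 153). In the Kat5 ko clones the sums of these lists overlapped the wildtype range. The 4 blood markers overlapped in all groups. The part of these markers in the results was not tested.

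For 2 Id genes the rest of their chromosome was shifted down in a single clone in which the Id gene itself lay above the wildtype range. Genes of chromosome 12, which holds *Id2*, had a median log2 shift of −0.27 in Kat5/1, and genes of chromosome 13, which holds *Id4*, one of −0.25 in Kat5/3. With these shifts taken out the Kat5 log2-folds were 2.78 (SE 1.04) for *Id2* and 0.50 (SE 0.28) for *Id4*. Chromosomes 2, 4, 9 and 14, with the other members apart from *Smad7* and *Bambi*, shifted by at most 0.18 in any library.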

How the data were processed

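Poly-A RNA of 10 O9-1 cultures or clones was sequenced by the authors from stranded libraries. The submitters' processing notes name bcl2fastq 2.20, STAR 2.7.3, R 4.2.1 and DESeq2 1.36.0 and the mm10 build; the counting program and annotation are not given in the sources used here. The authors deposited raw counts per gene, which were used here; their normalized tables and the comparisons derived from them were not. Counts were tested with edgeR 4.0.16 (quasi-likelihood, robust, TMM, filterByExpr, R 4.3.3) on the 2 groups compared, with Benjamini-Hochberg adjustment over all genes tested. A gene was called at an adjusted p of at most 0.05. SEs are of log2-folds. Exon lengths and places are from GENCODE M21 (GRCm38), with 42462 of 43346 gene IDs matched. No sample was dropped. Libraries of 1 group differed by more than counting noise (their chi-square over its degrees of freedom was at least 28.1). The labels and the methods of the study describe the wildtype libraries as independent biological replicates. The precision of low genes is limited by depth. DESeq2 1.42.0, other size factors, no filter, a fit of all 10 libraries, a replicate block, a chromosome offset and leaving out each library were tried as alternatives. The procedure was tested on simulated counts.

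The members and gene lists were chosen with earlier results of these data known, and no p is given for members. Named outside the members were *Kat5* and *Ep400*, DEGs of the pathway lists (up to 5 per list and contrast), the E proteins *Tcf3*, *Tcf4* and *Tcf12*, *Bmpr2*, *Acvr1*, *Bmpr1b*, *Smad1*, *Smad4*, *Smad5*, *Smad9*, *Nog*, *Grem1* and *Chrd*, and the 5 genes most correlated with the mean log2 CPM of *Id1*, *Id2* and *Id3*.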

Additional observations from a re-analysis of the deposited data

Results flagged for a closer look

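For *Smad6* the 2 sets of knockout clones differed: the Ep400 ko clones were higher than the Kat5 ko clones by a log2-fold of 3.43. For *Bmp4* the same direct comparison gave 3.17. Both differences were called by edgeR in the comparison of 3 with 3 clones, the groups did not overlap, and both genes are members chosen with the knockout results known. The call held in 1 of 6 fits without 1 library for *Smad6* and in 0 of 6 for *Bmp4*. Without overlap, 20.5% of all genes tested were higher in the Ep400 ko clones. For no member was a single wildtype library far from the other 3 by Dixon's criterion, and groups of 3 clones were not examined for this. With 4 values this criterion is strict: *Bmp2* did not meet it, with 5157 normalized counts in WT/3 and 1148 to 2023 in the other 3.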

How the results depend on the processing

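Counts of called genes depended on the tool and on single libraries. Of 380 alternative values of the members' log2-folds, 376 stayed within 1 SD of log2 levels between replicates and none of a called gene reversed. The 4 others were *Id2* without Kat5/3 (0.85 against wildtype, 1.88 between knockouts) and *Bmp2* without Ep400/2 (−1.27 and 0.46). This limit is wide for fits without 1 library, and counts were judged by another rule, so that folds and counts cannot be compared in this respect. For the Kat5 ko clones edgeR called 84 genes, 1 member and 0 pathway genes; DESeq2 called 1489, 5 and 3, no filter gave 286 genes and 2 members, and the fit of all 10 libraries 33 genes and 0 members. For the Ep400 ko clones the counts of 1899, 2 and 11 became 3131, 5 and 17 with DESeq2. Between the knockouts 958 genes and 4 pathway genes became 3067 and 14 with DESeq2, 1445 genes with no filter, and 3542 and 14 in the fit of all 10 libraries. Leaving out 1 library gave 1 to 2654 genes, 0 to 2 members and 0 to 6 pathway genes for the Kat5 ko clones (the highest without Kat5/1), 804 to 2020, 1 to 3 and 7 to 11 for the Ep400 ko clones, and 3 to 2537, 0 to 1 and 0 to 12 between the knockouts (the lowest number of genes without Ep400/3, the highest without Kat5/1). The causes were not tested. Replicate numbers did not pair the samples: same-numbered libraries correlated between −0.0957 and 0.223, and 5 of 18 matched their own number best. With the replicate block the calls fell to 0 genes and 0 members (Kat5), 166, 0 members and 0 pathway genes (Ep400), and 213, 0 and 1 (between knockouts). Levels of the 10 genes without TMM stayed within the spread. Depth limits the wildtype values of *Id2*, *Smad6* and *Bmp4*.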
